A study of Mus musculus with 121 samples.

Results

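Adipokines are proteins that fat tissue releases into the blood or to its neighbouring cells. The 9 adipokine genes described here, of 25759 genes in the count table, are Lep, Adipoq, Retn, Cfd, Rbp4, Nampt, Sfrp5, Apln and Nrg4. They were chosen by name, as the rows of the gonadal adipose table whose Ensembl identifier carries one of these symbols. The choice was made with earlier results of these data known. All 9 passed the filter on low counts that left 14536 genes for testing. RNA was sequenced from gonadal fat of C57BL/6 mice. They carried both copies (WT, wild type), 1 copy (HET, heterozygous) or no copy (KO, knockout) of a gene named PEP in the labels. Every mouse ate its diet for 18 weeks from 8 weeks of age, either standard chow with 10% of its calories from lipid or a high-fat diet (HFD) whose label carries the number 45. The chow groups held 4 WT, 8 HET and 5 KO mice, and the HFD groups 8 WT, 11 HET and 9 KO mice. How the PEP allele was made is not given in the sources used here, and the fat was taken whole, with its vessels, immune cells and stroma, so fewer cells of a type and less RNA per cell cannot be told apart.

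Leptin, made from Lep, is released by fat cells in step with their fat content and signals satiety to the brain through a receptor that activates the JAK and STAT proteins. Adiponectin (Adipoq), resistin (Retn) and adipsin (Cfd) are also products of mature fat cells, and in obese rodents the RNA of Lep is known to rise while that of Cfd is known to fall. The other members act locally or are made in several tissues. Retinol-binding protein 4 (Rbp4) carries vitamin A in the blood, Nampt is the rate-limiting enzyme of NAD salvage and is also secreted, Sfrp5 binds and blocks WNT ligands, apelin (Apln) acts on the receptor Aplnr, and neuregulin 4 (Nrg4) is an EGF-family ligand of ErbB receptors.

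The 4 promoters below belong to the members with the largest diet and genotype differences, Lep and Cfd, and to a pair whose levels went together across mice, Adipoq and Retn. Each is the 250 bases before the start site in RefSeq for GRCm38.p6, printed 5′ to 3′. Capitals mark a match to TTNCNNAA, a C/EBP-like motif.

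Lep, chr6:29059971-29060220, plus strand: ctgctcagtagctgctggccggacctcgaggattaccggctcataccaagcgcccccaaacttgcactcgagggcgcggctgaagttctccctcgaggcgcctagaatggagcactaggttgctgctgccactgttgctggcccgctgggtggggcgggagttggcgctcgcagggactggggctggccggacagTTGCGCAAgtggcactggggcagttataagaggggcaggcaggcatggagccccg

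Adipoq, chr16:23146286-23146535, plus strand: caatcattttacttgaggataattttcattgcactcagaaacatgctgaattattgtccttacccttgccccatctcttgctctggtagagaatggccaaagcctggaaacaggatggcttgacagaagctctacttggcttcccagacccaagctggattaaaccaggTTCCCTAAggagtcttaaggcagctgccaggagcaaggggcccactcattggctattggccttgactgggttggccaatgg

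Retn, chr8:3655520-3655769, plus strand: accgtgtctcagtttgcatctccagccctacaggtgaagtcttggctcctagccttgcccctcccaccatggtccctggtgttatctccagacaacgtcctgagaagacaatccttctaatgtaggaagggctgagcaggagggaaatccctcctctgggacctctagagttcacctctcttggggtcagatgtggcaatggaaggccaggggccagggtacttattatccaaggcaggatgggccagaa

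Cfd, chr10:79890603-79890852, plus strand: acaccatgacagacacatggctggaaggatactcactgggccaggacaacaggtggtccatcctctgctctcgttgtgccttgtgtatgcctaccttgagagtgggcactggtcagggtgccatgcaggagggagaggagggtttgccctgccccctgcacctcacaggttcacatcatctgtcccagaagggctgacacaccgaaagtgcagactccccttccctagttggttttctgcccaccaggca

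Searched on both strands were 6 motifs: the C/EBP-like motif TTNCNNAA, the TATA box TATAAA, the nuclear receptor site AGGTCA, the CCAAT box, the GC box GGGCGG and the E-box CACGTG. All 9 members matched a promoter in the table. TTNCNNAA began 55 bases before the start of Lep and 81 bases before that of Adipoq, and it also stood at 9 bases in Rbp4 and at 127 and 212 bases in Nrg4. It was present in 36.8% of the 32851 promoters of this length in the table. Adipoq also held CCAAT at 7, 27 and 34 bases before its start, a motif found in 33.8% of promoters, and Lep held GGGCGG at 98 bases, found in 32.7%. None of the 6 motifs was in the windows of Retn and Cfd.

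Gonadal libraries held 4236655 to 6699887 counts, with a median of 5981802. PEP is taken here as Pepd, on background knowledge of the work and not on the labels. Pepd encodes prolidase, which splits dipeptides that end in proline. Pepd stood at 83.8 ± 17.8 CPM (counts scaled to a common library size, SD, n = 4) in chow WT, 57.9 ± 7.13 (n = 8) in chow HET, 17.8 ± 11.3 (n = 5) in chow KO, 103 ± 9.3 (n = 8) in HFD WT, 61.6 ± 13.8 (n = 11) in HFD HET and 25.2 ± 6.7 (n = 9) in HFD KO. Every KO library lay below every WT library, but HFD library 3 labelled HET was at 21.8 CPM, the level of KO. Pepd RNA remained in every KO library, at 6.71 CPM or more on chow and 15.4 CPM or more on HFD. All 10 defining markers of mature fat cells were present in every library, Fabp4 at 3457 CPM or more and Plin1 at 262 CPM or more. Chow KO mice 1, 4 and 5 stood apart from the rest. Summed over 22 fat cell markers the chow KO libraries held 22805, 60364, 74760, 9668 and 17396 CPM in mice 1 to 5, against 49084 to 66654 in chow WT, and mice 1, 4 and 5 carried 483, 1625 and 508.7 CPM of lymphocyte markers, against 24.4 to 73.7 in chow WT. Chow KO mouse 2, at 254.3 CPM of lymphocyte markers, was also above that range, and mouse 3, at 36.3 CPM, was within it. Members called in comparisons with chow KO mice are therefore also given without mice 1, 4 and 5. That leaves only chow KO mice 2 and 3, so a call that ends there does so in a smaller group. Chow WT mouse 2, chow HET mouse 2 and chow KO mouse 1 carried 16901 to 20947 CPM of epididymis markers, and HFD WT mouse 6 carried 53517 CPM of hepatocyte markers.

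The 9 members differed widely in level. In CPM per kilobase of exon, which allows comparison between genes, chow WT fat held Cfd at 5080 and Adipoq at 2391, followed by Lep at 1018, Retn at 816 and Rbp4 at 421. Sfrp5 was at 101, Nampt at 20.2, Apln at 7.98 and Nrg4 at 4.41. On HFD the order of the leading genes was different. Adipoq led in WT at 2019 CPM per kilobase, Lep was next at 1286 and Cfd came after it at 1186. Cfd ranked 1 in each chow genotype and 3 in each HFD genotype. Cfd and Adipoq did not separate in chow WT, where Cfd ran from 1549 to 12549 CPM per library against 2903 to 3737 CPM for Adipoq before scaling by length.

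**Figure D1:**
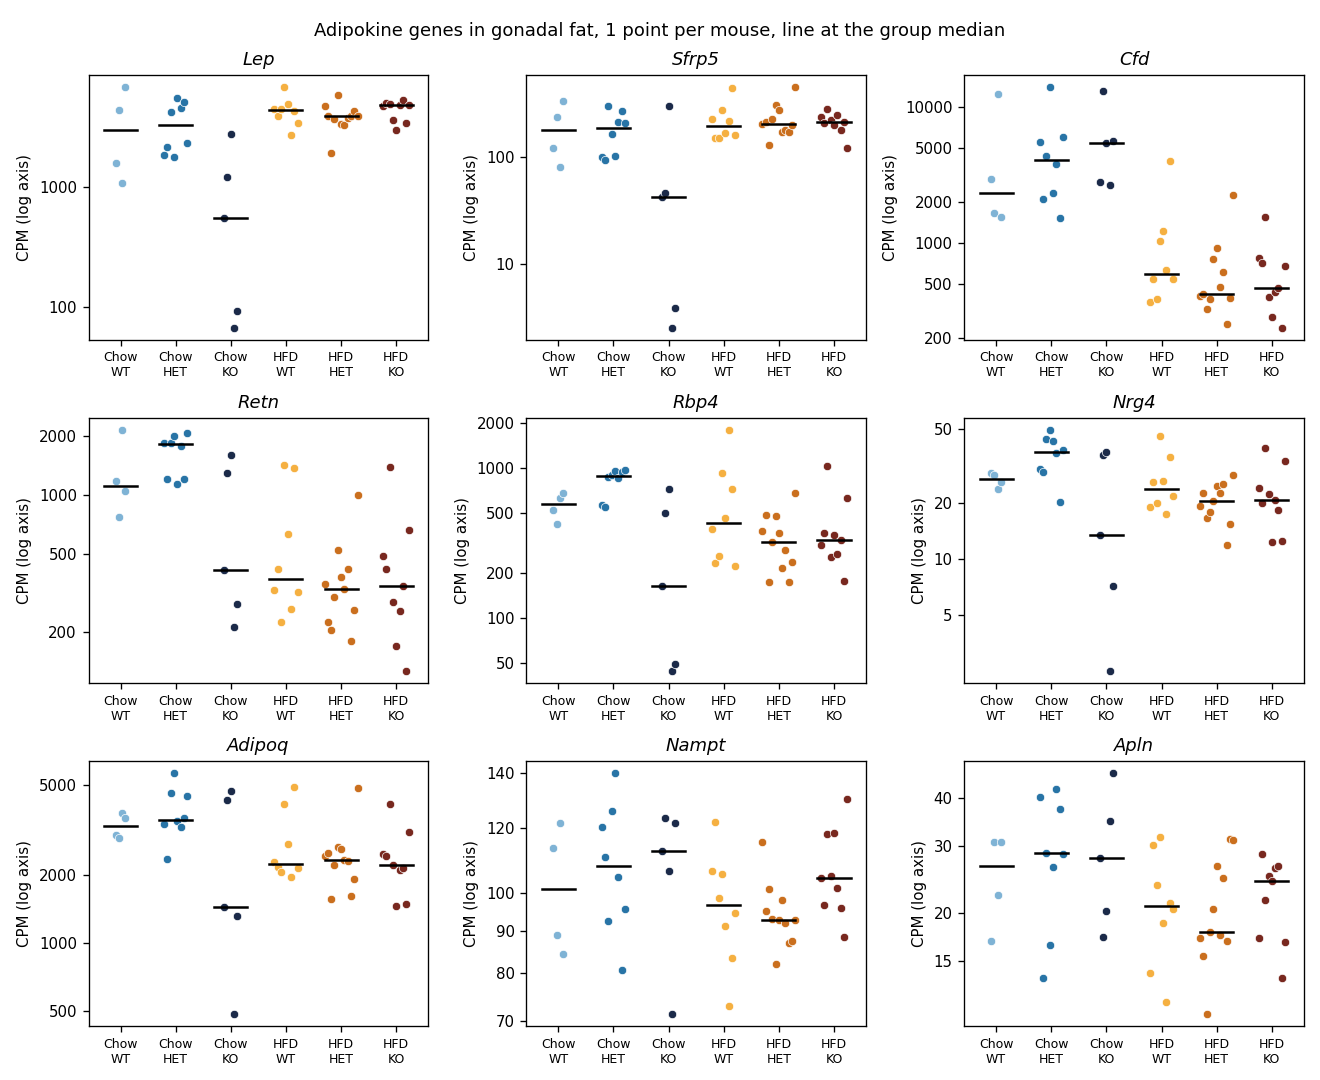
Level of each of the 9 adipokine genes in every gonadal fat library, in TMM-scaled CPM on a log axis, by diet and genotype (chow WT n = 4, HET n = 8, KO n = 5; HFD WT n = 8, HET n = 11, KO n = 9). Points are mice and bars are group medians. Lep and Sfrp5 have 2 chow KO mice far below all others, Cfd is lower on HFD in each genotype, and Nampt stays between 71.3 and 140 CPM throughout.

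The diet comparison asks how 18 weeks of HFD moved each gene within a genotype. Cfd, the protease that cleaves factor B to start the alternative complement pathway, was the member that fell in all 3 genotypes. In chow WT mice 2 to 5 it stood at 2970, 1667, 12549 and 1549 CPM, and in HFD WT mice it ran from 370 to 4030 CPM with a median of 586.2. Chow WT mouse 4 was far above the other chow mice, and 7 of the 8 HFD mice lay below every chow mouse. The log2 fold change was -2.10 ± 0.62 (SE), a 4.28-fold lower mean, with an adjusted p of 0.0428 by edgeR's quasi-likelihood test with Benjamini-Hochberg adjustment.

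Cfd also fell in HET and KO mice. Chow HET mice ran from 1515 to 14060 CPM with a median of 4082, and HFD HET mice from 253 to 2266 with a median of 418. Of the 11 HFD HET mice, 10 were below every chow HET mouse, and the log2 fold change was -2.92 ± 0.50 (adjusted p 4.6e-05, edgeR). Chow KO mice 1 to 5 stood at 2802, 13188, 5452, 2673 and 5662 CPM, and HFD KO mice ran from 238 to 1559 with a median of 463. All 9 HFD KO mice were below every chow KO mouse, and the log2 fold change was -3.27 ± 0.58 (adjusted p 4.0e-05, edgeR). The fall in KO did not differ from that in WT by the test, as the KO effect on HFD minus that on chow was -1.17 (adjusted p 0.432, edgeR). Relative to 1000 CPM of summed fat cell markers, Cfd ran from 72.9 to 325 in chow KO and from 23.2 to 209 in chow WT, which overlapped. In HFD KO it ran from 6.33 to 20 on this scale. The part of fat cell content in these levels was not tested.

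In KO mice the fall of Cfd stayed past the threshold in every alternative run, with log2 values from -3.92 to -2.75. In WT it did not: without chow WT mouse 4 it was -0.91 (adjusted p 0.389), without chow WT mouse 2 -2.27 (adjusted p 0.139), and without HFD WT mouse 6 -2.01 (adjusted p 0.0533), all by edgeR.

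Lep passed the test for diet in KO and not in WT or HET. Chow KO mice 1 to 5 held 554.4, 1213, 2744, 67.7 and 92.5 CPM of Lep, and HFD KO mice ran from 2925 to 5271 with a median of 4737. Mice 4 and 5 were far below the other 3 chow KO mice, and all 9 HFD KO mice were above every chow KO mouse. Lep rose by 2.22 ± 0.51 on the log2 scale, 4.64-fold (adjusted p 0.000899, edgeR's quasi-likelihood test with Benjamini-Hochberg adjustment). In WT, chow mice 2 to 5 held 1557, 4307, 1074 and 6724 CPM and HFD mice ran from 2705 to 6647 with a median of 4309, a log2 difference of 0.34 ± 0.51 (adjusted p 0.696, edgeR). HET mice ran from 1753 to 5385 on chow and from 1909 to 5708 on HFD, a log2 difference of 0.17 ± 0.38 (adjusted p 0.771, edgeR). The WT and HET groups overlapped across diets.

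Sfrp5, the WNT inhibitor, also rose in KO mice. Its chow KO values were 41.9, 45.8, 295, 2.52 and 3.9 CPM in mice 1 to 5, and HFD KO mice ran from 121 to 281 with a median of 210. Mouse 3 was above the whole HFD KO group, while the other 4 chow KO mice were below all of it. The log2 fold change was 1.43 ± 0.55, 2.70-fold (adjusted p 0.0381, edgeR). In WT, Sfrp5 was at 119, 235, 80.6 and 333 CPM on chow and at 148 to 438 on HFD, which overlapped, and HET mice at 92.6 to 299 on chow and 127 to 448 on HFD also overlapped.

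The rise of both genes in KO was largest in libraries of high mouse number, a run in the labels that nothing there calls a batch. Among mouse numbers above 500, with 2 chow KO mice, it was 5.84 for Lep and 5.88 for Sfrp5, and among those below 500 it was 1.48 (adjusted p 0.0584, edgeR) and 0.84 (adjusted p 0.277, edgeR). Without the 3 chow KO libraries with the most lymphocyte RNA it was 1.13 for Lep (adjusted p 0.111, edgeR) and 0.31 for Sfrp5 (adjusted p 0.766, edgeR). That fit held only chow KO mice 2 and 3. With chow KO mouse 3 left out, the value was 3.17 for Lep and 3.15 for Sfrp5, and leaving out chow KO mouse 1, 2, 4 or 5 ended the Sfrp5 call.

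Retn, Rbp4 and Nrg4 fell on HFD in HET mice. Retn, a hormone linked to insulin resistance in rodents, ran from 1139 to 2064 CPM with a median of 1817 in chow HET and from 179 to 1005 with a median of 333 in HFD HET. All 11 HFD HET mice were below every chow HET mouse, and Retn fell by 2.11 ± 0.41 on the log2 scale (adjusted p 0.000181, edgeR). Rbp4 ran from 551 to 968 CPM with a median of 883 on chow and from 173 to 677 with a median of 319 on HFD. For Rbp4, 10 of 11 HFD mice lay below every chow mouse, and it fell by 1.27 ± 0.40 (adjusted p 0.0132, edgeR). Nrg4 ran from 20.4 to 49.4 CPM on chow and from 12 to 28.2 on HFD. Of the 11 HFD mice 5 were below every chow mouse, and Nrg4 fell by 0.84 ± 0.27 (adjusted p 0.0164, edgeR).

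Neither of the other genotypes gave a call for these 3 genes. In WT, Retn stood at 1186, 772, 2146 and 1049 CPM on chow and at 226 to 1427 with a median of 373 on HFD, a log2 difference of -1.04 ± 0.52 (adjusted p 0.183, edgeR) with 6 of 8 HFD mice below every chow mouse. In KO the difference for Retn was -0.73 ± 0.48 (adjusted p 0.242, edgeR), and -1.66 without the 3 lymphocyte-rich chow KO libraries (adjusted p 0.0566, edgeR). Rbp4 differed by 0.15 in WT and by 0.48 in KO, -0.57 without those libraries, and its HET effect on HFD minus that on chow did not pass the test.

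Adipoq, whose product sensitises tissues to insulin, stood in WT at 3009, 2903, 3737 and 3557 CPM on chow and 1959 to 4871 on HFD. In HET it ran from 2358 to 5624 CPM on chow and from 1561 to 4845 on HFD. The HET difference of -0.65 ± 0.27 missed the threshold (adjusted p 0.0531, edgeR) and passed it with DESeq2 (adjusted p 0.0483). Nampt group means lay between 94.3 and 109 CPM, and its diet differences were -0.08 ± 0.13 in WT, -0.21 ± 0.10 in HET and -0.01 ± 0.12 in KO. Apln group means lay between 20.9 and 29.3 CPM, with a difference of -0.48 ± 0.21 in HET (adjusted p 0.0764, edgeR). Counts of Nampt and Nrg4 are uncertain, because each overlaps another annotated gene. Nampt overlaps Gdap10 on its own strand. Nrg4 overlaps Fbxo22 and Gm15625 on the other strand, and the strand setting of the counting is not given in the sources used here.

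Counted together by edgeR's quasi-likelihood test, 1 of 9 members was lower on HFD in WT, where 4.57% of all genes tested were called in either direction. In HET 4 of 9 (Cfd, Retn, Rbp4 and Nrg4) were lower and none higher, where 34.4% of all genes were called. In KO 2 of 9 were higher and 1 lower, where 35.5% of all genes were called. The members' median log2 difference was -0.08 in WT, -0.65 in HET and -0.01 in KO, against -0.02, -0.04 and -0.08 over all genes. In HET 13 of 14 macrophage markers and 7 of 10 lymphocyte markers were also higher on HFD and 11 of 21 fat cell genes lower, and their part in the 4 calls was not tested. All 4 calls ended without the libraries rich in other tissues, where Cfd was at -2.15, Retn at -1.84, Rbp4 at -0.86 and Nrg4 at -0.59. Without the HFD library 3 labelled HET the 4 calls stayed, with Cfd at -2.85, Retn at -2.04, Rbp4 at -1.20 and Nrg4 at -0.81. The 4 calls also held among mouse numbers below 500 and ended among those above 500, where Cfd was -2.06 (adjusted p 0.147, edgeR), Retn -1.83 (adjusted p 0.0955), Rbp4 -1.41 (adjusted p 0.146) and Nrg4 -0.63 (adjusted p 0.299).

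**Figure D2:**
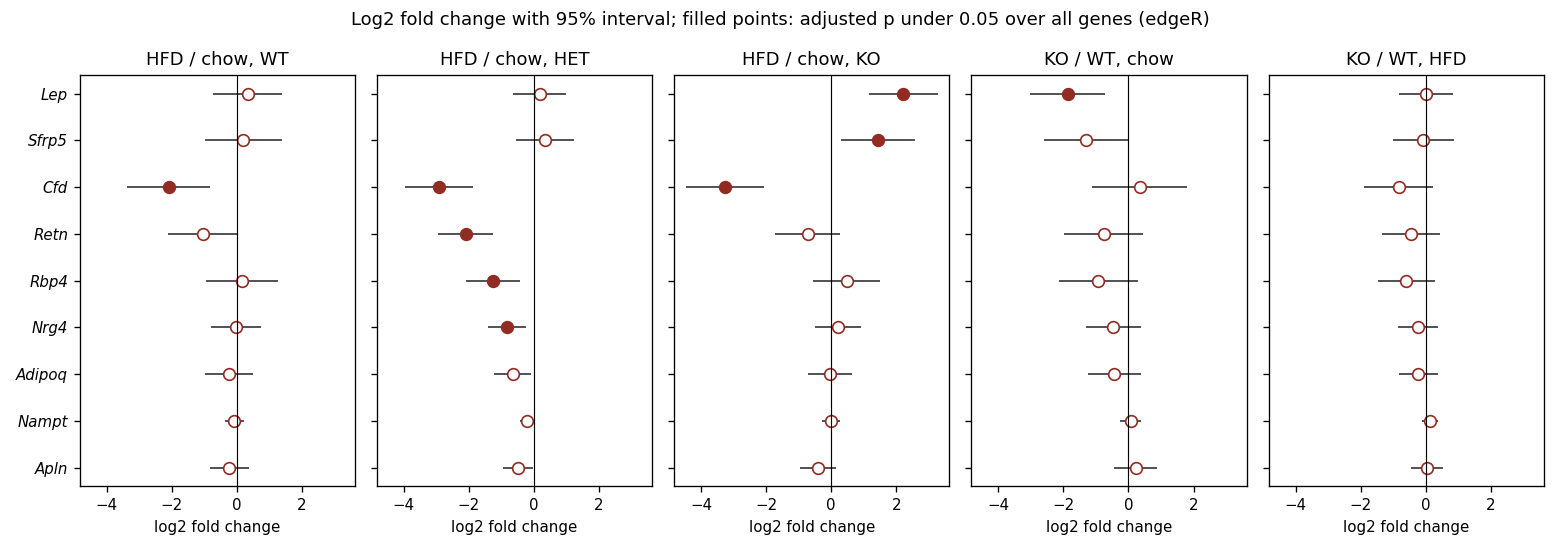
Log2 fold change of the 9 adipokine genes for HFD against chow in WT, HET and KO and for KO against WT on each diet, from edgeR. Lines are 95% intervals, and filled points have an adjusted p under 0.05. Cfd is below 0 with HFD in each genotype, Lep is above 0 with HFD in KO and below 0 in KO on chow, and no point is filled for KO against WT on HFD.

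The genotype comparison asks how the same genes differed by PEP genotype on each diet. On chow, 1 of 9 members was called between KO and WT, where 15% of all genes were called. That gene was Lep, at a log2 fold change of -1.87 ± 0.56, 3.65-fold lower in KO (adjusted p 0.0205, edgeR's quasi-likelihood test with Benjamini-Hochberg adjustment). From the values above, 3 of the 5 chow KO mice were below every chow WT mouse, while mice 2 and 3 lay within the WT range. Sfrp5 was below every WT value in 4 of 5 KO mice, with mouse 3 within the WT range, and its difference of -1.30 ± 0.62 did not pass the test (adjusted p 0.144, edgeR). Without mouse 3 it was -3.02 and passed (adjusted p 0.00011, edgeR), as did Rbp4 at -1.57 (adjusted p 0.0436, edgeR). Without the 3 lymphocyte-rich KO libraries Sfrp5 was at -0.17 and Rbp4 at 0.13. The members' median difference was -0.46, against -0.03 over all genes.

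The Lep difference on chow lost its call when chow WT mouse 3 or 5 or chow KO mouse 4 or 5 was left out (log2 -1.74, -1.31, -1.57 and -1.58), and without chow KO mouse 3 it was -2.82. It was -0.96 (adjusted p 0.484, edgeR) among mouse numbers below 500 and -5.62 (adjusted p 9.4e-05, edgeR) among those above, where chow KO mice 4 and 5 fall, and -0.79 (adjusted p 0.552, edgeR) without the 3 KO libraries with the most lymphocyte RNA.

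Against HET on chow, 3 of 9 members were lower in KO and none higher, where 32.4% of all genes were called. Lep fell by 1.86 ± 0.51 (adjusted p 0.00478, edgeR), with 4 of 5 KO mice below every HET mouse. Rbp4 stood at 163, 504.1, 729, 44 and 49.2 CPM in chow KO mice 1 to 5 and fell by 1.47 ± 0.52 (adjusted p 0.0276, edgeR), with 4 of 5 below every HET mouse. Nrg4 stood at 13.5, 36.2, 37.6, 2.52 and 7.2 CPM and fell by 0.91 ± 0.35 (adjusted p 0.0414, edgeR), with 3 of 5 below every HET mouse. Mice 4 and 5 were the lowest for all 3 genes. Among mouse numbers below 500 none of the 3 was called, at -1.03 for Lep, -0.73 for Rbp4 and -0.44 for Nrg4, and without the 3 lymphocyte-rich libraries they were at -0.78, -0.43 and 0.01. Leaving out chow KO mouse 1, 4 or 5 also ended the calls of Rbp4 and Nrg4, and without mouse 3 Adipoq, Retn and Sfrp5 were called as well.

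Retn and Adipoq were also low in chow KO mice 4 and 5. Retn stood at 413, 1302, 1595, 213 and 277 CPM in KO mice 1 to 5, and Adipoq at 1443, 4285, 4674, 484 and 1311 CPM. Mice 1, 4 and 5 were below every chow WT mouse for both genes, and mice 2 and 3 were within or above the WT range. Neither difference from WT passed the test, and neither did that of Cfd, at 0.35 (adjusted p 0.768, edgeR).

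On HFD, no member was called between KO and WT, where 0.0344% of all genes were called by edgeR. None of the 9 had an unadjusted p under 0.05, and DESeq2 called none. Lep differed by 0.01 ± 0.40 on the log2 scale, and the members' median was -0.22, against -0.03 over all genes. The KO effect on HFD minus that on chow was 1.88 ± 0.68 for Lep (adjusted p 0.0869, unadjusted p 0.0089, edgeR), the only member with an unadjusted p under 0.05. No member was called by edgeR or DESeq2 for that difference, where edgeR called 6.33% of all genes. Without chow KO mouse 3 the difference was 2.83 for Lep and 2.94 for Sfrp5, and both then passed the test (adjusted p 0.00213 and 0.0015, edgeR). Lep also passed without chow WT mouse 4, at 2.18 (adjusted p 0.0408, edgeR). Without the 3 lymphocyte-rich chow KO libraries the difference was 0.80 for Lep and 0.10 for Sfrp5 (adjusted p 0.664 and 0.98, edgeR), and among mouse numbers below 500 it was 0.75 and 0.68.

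The remaining genotype comparisons gave no call among the members. Between HET and WT on chow edgeR called 0% of genes, none of the 9 had an unadjusted p under 0.05, and DESeq2 called none of the 9. Between HET and WT on HFD (0.00688% of genes called) and between KO and HET on HFD (0.0138%) edgeR and DESeq2 again called no member, and Rbp4 alone had an unadjusted p under 0.05, of 0.0363, in HET against WT on HFD. The log2 difference of Rbp4 there was -0.87, and -0.42 without HFD WT mouse 6. For the HET effect on HFD minus that on chow, edgeR called 0% of genes, Rbp4 alone had an unadjusted p under 0.05, and DESeq2 called no member.

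The members were also set against the summed fat cell markers of each library. Per 1000 CPM of markers, Adipoq was at 50.1 to 75.4 CPM in chow KO and 53.4 to 62.3 in chow WT, and Retn at 15.9 to 22 against 14.2 to 35.8. Those ranges overlapped, although the summed markers themselves ran from 9668 to 74760 CPM among chow KO mice. Lep per 1000 CPM of markers was at 5.32 to 36.7 in chow KO, 17.9 to 101 in chow WT and 62.1 to 109 in HFD KO. Every HFD KO mouse was above every chow KO mouse on this scale too. Sfrp5 ran from 0.223 to 3.95 in chow KO and from 1.34 to 4.99 in chow WT. Chow KO and chow WT overlapped on this scale for all 4 of these genes. The share of the differences that goes with fat cell content was not tested.

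**Figure D3:**
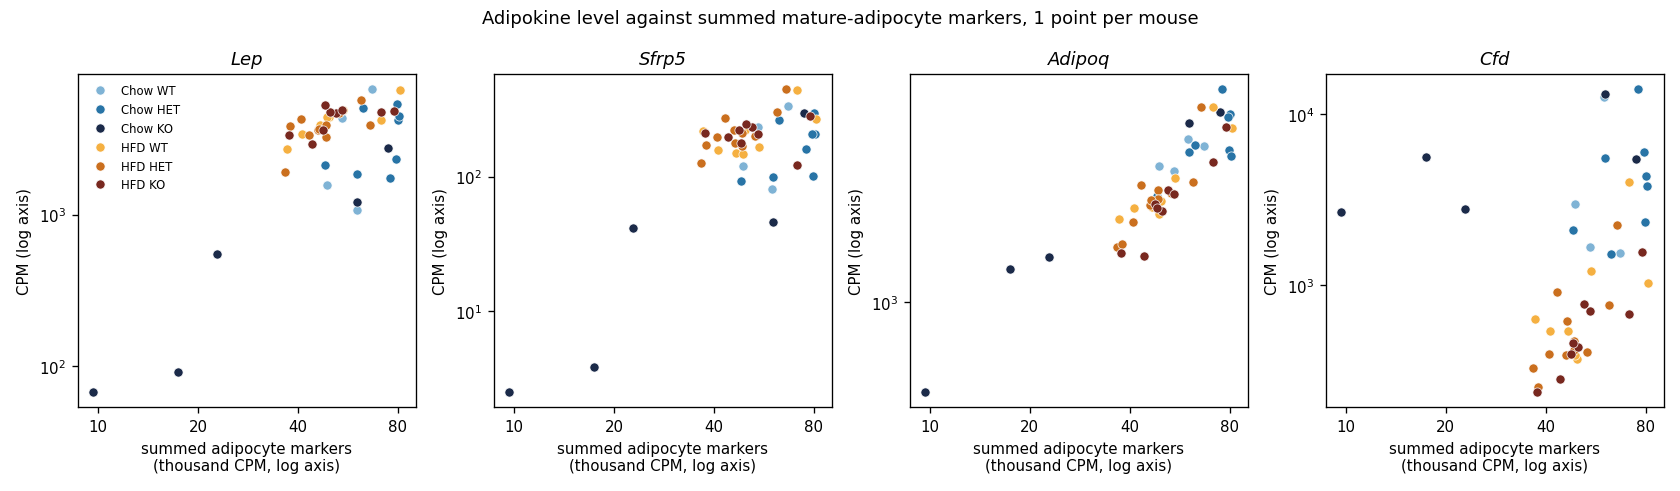
Level of Lep, Sfrp5, Adipoq and Cfd (CPM) against the summed level of mature fat cell markers (1000 CPM) in each gonadal library, both on log axes, with diet and genotype marked. Chow KO mice 1, 4 and 5 lie at the left with 9668 to 22805 CPM of markers. Adipoq and Lep are low there and Cfd is within its chow WT range. Most HFD libraries lie below the chow libraries for Cfd.

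Rbp4 is made mostly in liver, which the same study measured. In 75 liver libraries it ran from 2237 to 4314 CPM with a median of 3003, and it was lower in every fat library. Liver CPM were taken over plain library totals and fat CPM over TMM-scaled totals. HFD WT mouse 6 had the highest Rbp4 in fat, 1799 CPM against 926 in the next mouse of its group. That library also held 34549 CPM of albumin (Alb), a liver protein. At the ratio of Rbp4 to Alb in the liver of the same mouse, 0.0366, its albumin goes with 1264 CPM of Rbp4, or 70.3% of the total, which leaves 534 CPM. Over the 44 mice with both tissues, each at its own liver ratio, the median share was 0.942%, and 7 mice were over 10%. Chow KO mouse 4, with 44 CPM of Rbp4 and 385 CPM of Alb, gave 120%, with a liver ratio of 0.137.

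Other members were scarce in liver. Lep was at 0 counts in 60 of the 75 liver libraries, Retn in 60, Sfrp5 in 68, Apln in 56 and Adipoq in 47. A count of 0 also depends on depth. Liver libraries held 42692 to 8854246 counts, with a median of 3191160 against 5981802 in fat. Nampt, with a median of 69 CPM, and Nrg4, with a median of 8.44 CPM, were present in every liver library.

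**Figure D4:**
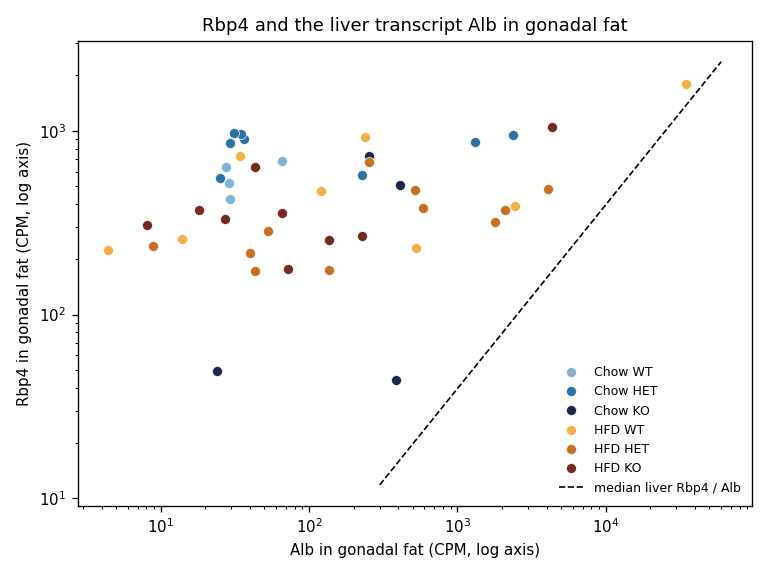
Rbp4 against albumin (Alb) in each gonadal fat library, in CPM on log axes, by diet and genotype. The dashed line is the median liver ratio of Rbp4 to Alb over the 44 mice, 0.0395; HFD WT mouse 6, at 34549 CPM of Alb and 1799 CPM of Rbp4, lies close to it, and most libraries lie far above it.

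The members were also compared from mouse to mouse within groups. For each of the 36 pairs, log2 CPM was centred on its group mean and correlated over 17 chow mice and over 28 HFD mice. Permutation p-values were adjusted by Benjamini-Hochberg over the 36. The permutations exchanged mice across genotypes, which takes an equal spread in each. On chow the spread was unequal, as Lep covered a 40.5-fold range in KO, 6.26-fold in WT and 3.07-fold in HET. The chow p-values are therefore approximate. On chow 17 pairs and on HFD 18 pairs had an adjusted p under 0.05, all with positive r, and 13 pairs had it on both diets. Without the 3 lymphocyte-rich chow KO libraries 3 pairs passed on chow, and 2 of them were negative, Lep with Cfd (r = -0.78, adjusted permutation p 0.0184) and Nampt with Sfrp5 (r = -0.77, adjusted permutation p 0.019). With all 17 chow mice those pairs were at -0.16 and -0.03. The genes of a pair share their libraries, with depth and cell content, and the part of these in each r was not tested.

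Adipoq and Retn had r = 0.89 and rho = 0.84 on chow (adjusted permutation p 0.00012 and 0.0009) and r = 0.95 and rho = 0.93 on HFD (adjusted permutation p 6.0e-05 for both, from a raw p of 1e-05, the smallest that the permutations can give). Without the 2 mice farthest from the median of Adipoq, r was 0.80 on chow and 0.94 on HFD. Within mouse numbers below and above 500 it was 0.90 and 0.39 on chow and 0.93 and 0.97 on HFD, and without the 3 lymphocyte-rich chow KO libraries it was 0.59 on chow (adjusted permutation p 0.122). The chow relation of this pair no longer passed without those libraries, while on HFD it held in both runs of mouse numbers.

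Adipoq and Nrg4 had r = 0.92 and rho = 0.77 on chow (adjusted permutation p 0.000154 and 0.00378) and r = 0.89 and rho = 0.89 on HFD (adjusted permutation p 6.0e-05 for both), and 0.79 and 0.93 without the 2 farthest mice. Within mouse numbers below and above 500 r was 0.96 and 0.81 on chow and 0.92 and 0.88 on HFD, and 0.48 on chow without the lymphocyte-rich libraries (adjusted permutation p 0.242). Retn and Cfd had r = 0.65 and rho = 0.67 on chow (adjusted permutation p 0.0109 and 0.0205) and r = 0.89 and rho = 0.90 on HFD (adjusted permutation p 6.0e-05 for both). That pair reached 0.76 and 0.86 without the 2 farthest mice, 0.72 and 1.00 within the runs below and above 500 on chow, 0.92 and 0.95 on HFD, and 0.83 on chow without the lymphocyte-rich libraries (adjusted permutation p 0.009). It was the 1 pair that then still passed on chow together with HFD.

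Lep went most closely with Sfrp5 on chow, at r = 0.92 and rho = 0.84 (adjusted permutation p 0.00012 and 0.00108) and 0.85 without the 2 farthest mice. Within mouse numbers below and above 500 it was 0.68 and 0.94, and 0.71 without the lymphocyte-rich libraries (adjusted permutation p 0.054). On HFD the same pair had r = 0.31 and rho = 0.23 and did not pass (adjusted permutation p 0.141 and 0.314), with 0.76 and 0.00 in the runs below and above 500. Nampt and Apln passed with few others. With all mice, Nampt passed only with Cfd on chow, and Apln only with Lep on HFD.

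**Figure D5:**
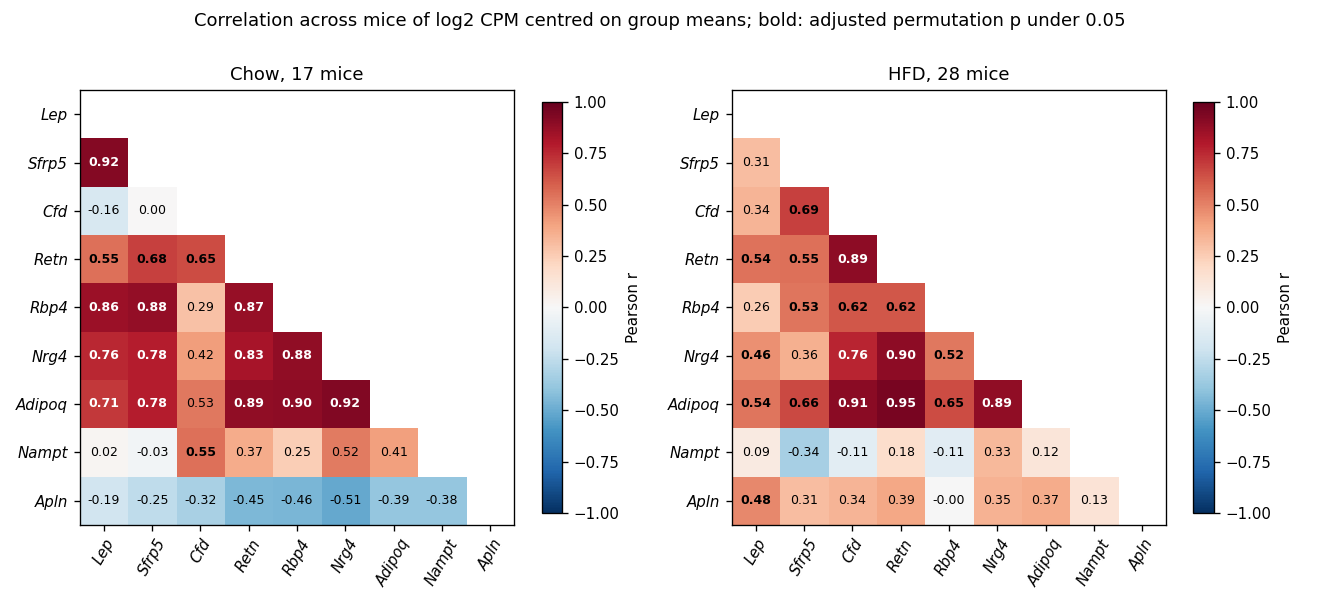
Pearson r of group-centred log2 CPM for the 36 pairs of adipokine genes, over 17 chow mice and over 28 HFD mice. The colour scale runs from negative to positive r. Adipoq, Retn and Nrg4 form the block of high values on both diets, with Adipoq and Retn at 0.89 on chow and 0.95 on HFD. Nampt passes only with Cfd on chow, and Apln only with Lep on HFD.

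Over all 45 gonadal libraries, the genes most like each member by Spearman rho of log2 CPM were named. Lep was most like Lpgat1 (0.93), Itga7 (0.93) and Rmc1 (0.91), and Sfrp5 like Gabrr2 (0.84), Klf14 and Plce1 (0.77 each). Adipoq was most like Pla2g16 (0.97), Lipe (0.95), a lipase of fat cells, and Abcd2 (0.95), and Nrg4 like Clybl (0.93), Slc2a4 (0.92), the insulin-regulated glucose transporter, and Arl4a (0.92). Retn went with Klhl2 (0.95), Atp6v0e2 (0.94) and Gpat3 (0.94), Cfd with Phkg1 (0.90), Kansl3 (0.90) and Gfod2 (0.89), and Rbp4 with Cyb5a (0.96), Hagh (0.95) and Lonp2 (0.93). The highest values for Nampt were lower, Hnrnpa2b1 at 0.63, Mgme1 at 0.60 and Cldnd1 at 0.58, as were those for Apln, Slc7a6 at 0.67, Vash1 at 0.62 and Jam3 at 0.62. These values describe libraries that share groups and fat cell content.

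Genes that act with the members were counted by list in the comparisons that gave calls. Of 12 adipokine receptor genes, none was called between KO and WT on chow. On HFD, 1 rose and 1 fell in WT, 3 rose and 3 fell in HET and 2 rose and 1 fell in KO, beside 4.57%, 34.4% and 35.5% of all genes called. Stra6l, a receptor for retinol-binding protein, rose in each genotype, by 3.34, 2.04 and 2.79 on the log2 scale (adjusted p 0.027 in WT, edgeR).

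For KO against WT on chow, the list counts that follow stand beside 15% of all genes called. Of 10 leptin signalling genes, 5 were higher and none lower in chow KO. Socs3, an inhibitor that STAT3 induces, was higher by 2.78 ± 0.52 (130 against 18.9 CPM, adjusted p 0.00055, edgeR), and Ptpn1, a phosphatase that acts on JAK2, by 0.97. On HFD 6 of the 10 fell in KO, where 35.5% of all genes were called, Socs3 by 2.58 (adjusted p 4.1e-06, edgeR). In the same chow KO mice Lep itself was lower, as given above, and the lymphocyte and macrophage lists had 4 of 10 and 5 of 14 genes higher.

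Of 9 alternative complement genes, the pathway in which adipsin acts, 4 were higher and 1 lower in chow KO than in chow WT. C3, its central component, was higher by 1.98 ± 0.38 (8253 against 2090 CPM, adjusted p 0.00061, edgeR), and Cfp, which stabilises the convertase, by 1.34. On HFD, 3 of the 9 rose and 1 fell in HET, beside 34.4% of all genes, led by the receptors C3ar1 (2.38) and C5ar1 (1.67), with 13 of 14 macrophage markers also higher. Cfd fell there, in the other direction.

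Among 14 SFRP and non-canonical WNT genes, 6 were higher and 1 lower in chow KO than in chow WT. Sfrp1, a relative of Sfrp5, was higher by 3.05 ± 0.53 (236 against 28.4 CPM, adjusted p 0.00035, edgeR), and Sfrp4 by 2.53, whereas Sfrp5 had a lower mean. The next counts rest on few genes each and are to be read beside the same 15%. Of 13 retinol handling genes 3 were higher and none lower, among them Rdh10 by 1.33 and Aldh1a2 by 1.23. Of 12 NAD genes 1 was higher, the NAD-consuming enzyme Cd38 by 1.88 ± 0.28 (adjusted p 0.00011, edgeR), and 1 lower, Nmnat2 (-1.23). Of 12 adiponectin assembly genes 3 were higher and none lower, among them Plod2, a lysyl hydroxylase, by 1.74. Of 6 EGF family ligands 1 was lower and none higher, Hbegf.

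Of 34 other secreted factors of fat tissue, 4 were higher and none lower in chow KO than in chow WT, led by Lcn2, a lipocalin of inflamed tissue, at 4.18 ± 1.17 (476 against 26.2 CPM, adjusted p 0.013, edgeR). Of 21 mature fat cell genes 4 were lower and none higher, with a list median of -0.65, among them Fasn (-1.56), the fatty acid synthase, and Lpl (-1.07). On HFD 11 of these 21 fell in HET, beside 34.4% of all genes called in either direction, and none was called in WT. In KO 7 rose, among them Cd36 (1.30) and Gpd1 (1.37), a share close to the 35.5% of all genes called. Without the 3 lymphocyte-rich chow KO libraries, which leaves 2 KO mice, edgeR called 0 of 15177 genes between KO and WT on chow and 1720 had an unadjusted p under 0.05, so none of the list calls for that comparison remained. For HFD against chow in KO, 5167 calls over all genes became 1358 without those libraries, and the lists were not counted again there.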

How the data were processed

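Gonadal fat and liver RNA came from stranded mRNA libraries read as single ends, per the labels' protocols. The submitters' processing notes name STAR 2.5.1b, featureCounts 1.5 and GRCm38.p5, with settings not given in the sources used here. Per the values, the authors deposited raw counts of reads for each Ensembl gene. Of 46 labelled gonadal samples 45 were used. Chow WT sample 1 was not analysed here, nor was 1 unlabelled column. Counts were tested in R 4.3.3 with edgeR 4.0.16: expression filter (minimum count 10, total 15), TMM scaling, and 1 quasi-likelihood fit over 6 groups, with Benjamini-Hochberg adjustment over 14536 genes and calls at an adjusted p under 0.05. CPM values of fat use TMM-scaled totals, and those of liver use plain library totals. The test was tried on simulated data. Over 163 pairs of libraries within groups, none agreed within sampling noise. P-values measure the spread between mice.

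The members and gene lists were chosen with earlier results of these data known. Named were all members, Pepd, up to 3 called genes of a list with the smallest adjusted p, the 3 genes most like each member, and other tissues' markers, with 1 list gene not reported here. Alternatives were DESeq2 1.42.0, other scalings and filters, only the groups compared, mice left out, runs of mouse numbers, and the replicate block. Fits without HFD WT mouse 6, without 4 epididymis-rich libraries or without 3 lymphocyte-rich libraries, and 2 further correlation settings, were chosen after seeing the data. Intervals on fold changes are 95%. Sequences are from RefSeq, GRCm38.p6, and gene positions were read from the GRCm38 annotation.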

Additional observations from a re-analysis of the deposited data

Results flagged for a closer look

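Levels of each member were examined within each of the 45 combinations of a member gene with a diet and genotype of 4 to 10 mice, and 9 had a mouse far from the others. Chance alone flags about 1 in 20 groups when values are normally distributed, a rate that was not checked for CPM, which was not log-scaled here. All 9 flags were the highest value of their group. Members also share libraries, so these are not independent. Cfd accounted for 5 of them. Its highest value was 12549 CPM in chow WT mouse 4 (next 2970), 14060 in chow HET mouse 4 (next 5988), 13188 in chow KO mouse 2 (next 5662), 4030 in HFD WT mouse 7 (next 1216) and 1559 in HFD KO mouse 3 (next 774). HFD KO mouse 3 was also highest for Retn, at 1385 CPM against 661 in the next mouse. HFD WT mouse 7 was also highest for Sfrp5, at 438 CPM against 269.9. Sfrp5 in chow KO mouse 3 was at 295 CPM against 45.8 in the next mouse of its group. Rbp4 in HFD WT mouse 6 was at 1799 CPM against 926, in the library with 34549 CPM of albumin RNA.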

How the results depend on the processing

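All 9 members passed the count filter at this depth, and the spread between libraries of a group was at least 3.90 times the sampling variance. The chow groups of 4 WT and 5 KO mice limit every comparison they enter. The replicate numbers did not pair the mice (89 same-number pairs across groups, correlation of deviations from -0.684 to 0.888, 28 of them over 0.1). Of the single-gene values under all alternatives, 1750 kept their side of the threshold, 64 lost it and 30 gained it. The 1750 include uncalled values that changed direction. The 1 called value that reversed was Nrg4 in KO against HET on chow, at 0.0097 without the 3 lymphocyte-rich chow KO libraries. The cause of the shifts below was not tested, apart from the fewer mice that some settings leave.

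Called members on HFD against chow in WT went from 1 to 0 with no filter, with only the groups compared, with the replicate block, in either run of mouse numbers, without libraries rich in other tissues, without HFD WT mouse 6, without the 4 epididymis-rich libraries and at an adjusted p under 0.01, and lay between 0 and 1 with a mouse left out. In HET they went from 4 to 0 above mouse number 500 and without rich libraries, and to 2 at 0.01. In KO they went from 3 to 1 below 500, without rich or lymphocyte-rich libraries and to 6 above 500, with 2 to 3 when a mouse was left out. For KO against WT on chow they went from 1 to 0 with only the groups compared, below 500, without rich or lymphocyte-rich libraries and at 0.01, to 6 above 500, and to 0 to 3 with a mouse left out. For KO against HET on chow 3 became 0 with only the groups compared, below 500, without rich or lymphocyte-rich libraries, 6 above 500, 1 without the epididymis-rich libraries or at 0.01, and 1 to 6 with a mouse left out. The difference of KO effects went from 0 to 3 above 500 and 0 to 2 with a mouse left out. The count of pairs of members correlated on both diets went from 13 to 6 below 500, 1 above 500 and 1 without the lymphocyte-rich libraries. The replicate block changed no other count of members by over 1.5 times.

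Over all genes, the 665 calls for diet in WT became 0 with only the groups compared, in either run of mouse numbers or without rich libraries, 2 with the replicate block, 3 without chow WT mouse 2, and 1330 with DESeq2. The 5002 in HET became 3182 and 914 below and above 500, and the 5167 in KO became 1029 below 500 and 1358 without lymphocyte-rich libraries. For KO against WT on chow, 2180 became 0 with only the groups compared, below 500 or without lymphocyte-rich libraries, 4915 above 500 and 4210 without chow KO mouse 3. For KO against HET on chow, 4711 became 0 below 500 or without lymphocyte-rich libraries, and the 920 for the difference of KO effects became 495 with the replicate block, 2903 above 500 and 2650 without chow KO mouse 3. For HET against WT on chow the count was 0 with edgeR (623 at an unadjusted p under 0.05) and 12 with DESeq2, and for the difference of HET effects 0 (824 unadjusted) and 5.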
